A study of Sus scrofa with 23 samples.

Results

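Endothelial cells line blood vessels, and smooth muscle cells and pericytes form the wall around them. In pig joint cartilage 7 genes of these cells were followed: CDH5, CLDN5, ESAM, GJA5 and TIE1 of the endothelium, and CNN1 and ACTA2 of the contractile wall. They were chosen as every probe set of the Affymetrix Porcine Genome Array whose platform gene symbol is exactly one of these names, which gave 10 probe sets of 7 genes, of 24123 probe sets and 6765 genes with exactly 1 symbol on the array. CDH5 had 2 probe sets (Ssc.75.1.S1_at and Ssc.75.2.S1_a_at), ESAM had 3 (Ssc.23336.1.S1_at, Ssc.1557.1.S1_at and Ssc.23336.1.S1_s_at, called the first, the second and the third below) and each other gene had 1.

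The samples came from crossbred Duroc and Pietrain pigs, in sib-pairs with and without osteochondrosis, a disorder of joint cartilage and of the bone that forms beneath it. Cartilage was taken from the medial femoral condyle (knee) and from the medial part of the humeral condyle (elbow). The 4 groups were affected femur with 4 arrays, non-affected femur with 5, affected humerus with 8 and non-affected humerus with 6. In each of 2 groups 1 pair of arrays was so close (an SD of their difference under 0.25 over all probe sets, against a median of 0.517 for the pairs that were not averaged) that it was averaged and counted as 1 sample, affected humerus 5 and 6 and non-affected femur 1 and 2. This left 4, 4, 7 and 6 samples in the same order, 21 in all. The labels say neither that samples of a group are different animals nor which are sibs, so a p-value here reflects nothing beyond the spread among the samples.

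Cartilage of mature joints holds no blood vessels, but in growing animals vessels run through the deeper cartilage in cartilage canals, and the tissue next to the bone is vascular. Endothelial cells join one another through adherens junctions, tight junctions and gap junctions. Smooth muscle cells and pericytes around them carry a contractile apparatus of actin, myosin and actin-binding proteins. Loss of the canals' blood supply is a textbook feature of osteochondrosis in pigs. In bulk RNA, fewer cells of a type and less RNA per cell cannot be told apart.

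All values below are the deposited log2 values, with a floor at 4, so a value near 4 may stand for anything lower. Probe sets with a mean over all samples under 5.30 were not tested. This left 16799 tested probe sets, 8 of the 10 vessel probe sets among them, and put the second CDH5 and the third ESAM probe set outside the test. CLDN5, GJA5 and CNN1 had femoral means of 4.89, 4.72 and 4.61, under that bound, and so were tested only through their humeral level. A probe set was called where limma's adjusted p (Benjamini-Hochberg over the 16799) was under 0.05. The 6 chondrocyte markers on the array were high in every sample, with a sum on the linear scale between 25817 and 39455 in femoral samples and between 27209 and 45853 in humeral samples. Markers of bone, osteoclasts and neutrophils also ran high in some humeral samples, up to 36490, 28953 and 29595.

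CDH5, CLDN5, GJA5, CNN1 and ACTA2 were lower in the femur than in the humerus, with log2 differences from -2.58 to -3.21 with status in the model. For the first 4 of them 4 or 5 of the 8 femoral samples read under 4.5, near the floor, so the size of their differences is not exact and their order is not read. TIE1 differed by -0.62, and the 3 ESAM probe sets did not run together. No vessel gene passed the test between affected and non-affected cartilage in either joint.

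**Figure D1:**
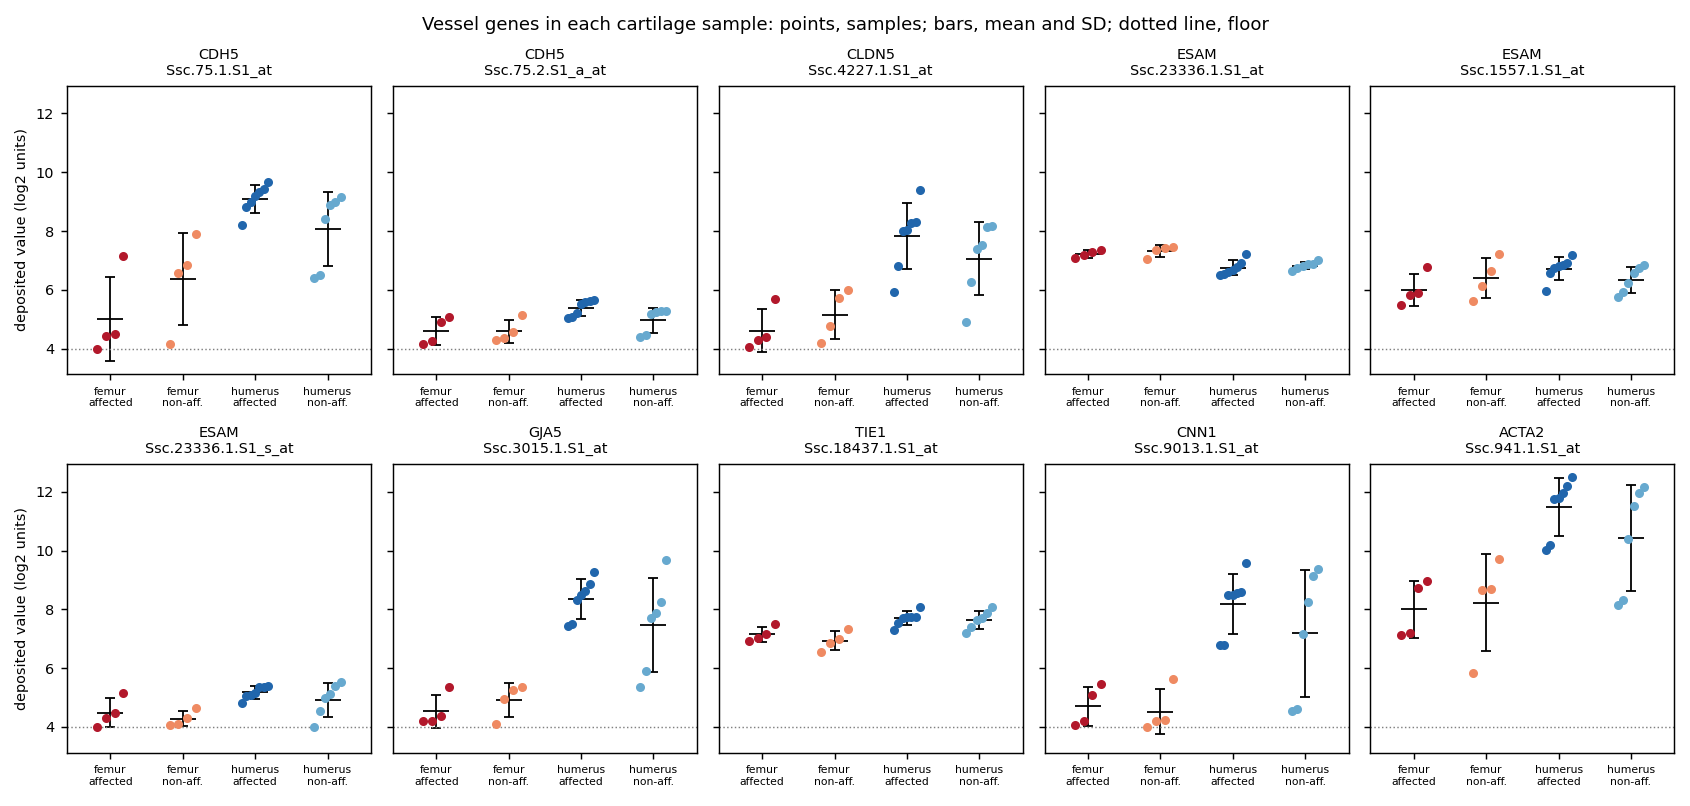
Deposited log2 values (vertical axis) of the 10 probe sets of the 7 vessel genes in affected femur (4 samples), non-affected femur (4), affected humerus (7) and non-affected humerus (6). Points are samples, bars are the mean and SD, and the dotted line is the floor at 4. CDH5 lay between 4.0 and 7.88 in the femur and between 6.41 and 9.65 in the humerus, whereas the first ESAM probe set lay between 7.03 and 7.45 in the femur and between 6.49 and 7.23 in the humerus.

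CDH5 encodes VE-cadherin, the adhesive protein of endothelial adherens junctions. Its first probe set, the tested one, read 4.49, 4.0, 4.41 and 7.14 in affected femur 1 to 4. In the non-affected femur it read 4.17 in the averaged 1 and 2, 6.85 in 3, 7.88 in 4 and 6.59 in 5. The affected humerus ran from 8.21 to 9.65 with a median of 9.19, and the non-affected humerus from 6.41 to 9.17 with a median of 8.65. In 3 affected femoral samples and 1 non-affected one it thus read under 4.5, near the floor, while the other femoral samples overlapped the lowest humeral ones. The femur differed from the humerus by -2.92 (SE 0.54, adjusted p = 1.73e-04 by limma).

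CLDN5, a claudin of endothelial tight junctions, read 4.05, 4.41, 4.30 and 5.69 in affected femur 1 to 4. Its non-affected femoral values were 4.18 in the averaged 1 and 2, 5.72 in 3, 5.98 in 4 and 4.76 in 5. Affected humeral values ran from 5.92 to 9.40 with a median of 8.02, and non-affected humeral values from 4.92 to 8.16 with a median of 7.45. The same affected femoral sample, number 4, was again the highest of its group, and 5 of 8 femoral samples lay below every humeral one. The difference was -2.58 (SE 0.45, adjusted p = 1.12e-04 by limma).

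GJA5 encodes a connexin that forms gap junctions between endothelial cells of arteries. It read 4.21, 4.20, 4.36 and 5.37 in affected femur 1 to 4, and 4.10, 5.27, 4.94 and 5.35 in non-affected femur 1 and 2 averaged, 3, 4 and 5. It ran from 7.45 to 9.27 in the affected humerus with a median of 8.48, and from 5.36 to 9.68 in the non-affected humerus with a median of 7.81. Of the 8 femoral samples 7 lay below every humeral sample, and affected femur 4 missed this by a hair, at 5.37 against 5.36 in non-affected humerus 5. The log2 difference, femur minus humerus, was -3.21 (SE 0.43, adjusted p = 7.96e-06 by limma).

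TIE1 is a receptor tyrosine kinase of endothelium that works beside TEK, the receptor of the angiopoietins. It read 7.49, 6.92, 7.15 and 7.04 in affected femur 1 to 4, and 6.55, 7.33, 6.98 and 6.87 in non-affected femur 1 and 2 averaged, 3, 4 and 5. The affected humerus ran from 7.30 to 8.08 with a median of 7.73, and the non-affected humerus from 7.19 to 8.07 with a median of 7.66. No sample was near the floor, and the joints overlapped narrowly. The femur was lower by 0.62 on the log2 scale (SE 0.12, adjusted p = 3.24e-04 by limma).

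CNN1, the calponin of smooth muscle, binds actin in the contractile apparatus. It read 4.08, 4.22, 5.08 and 5.46 in affected femur 1 to 4, and 4.0, 4.24, 5.65 and 4.20 in non-affected femur 1 and 2 averaged, 3, 4 and 5. In the affected humerus it ran from 6.79 to 9.56 with a median of 8.50, and in the non-affected humerus from 4.54 to 9.39 with a median of 7.71. The low non-affected humeral values belonged to samples 5 and 1, at 4.54 and 4.60, which were as low as femoral cartilage. The difference was -3.08 (SE 0.57, adjusted p = 1.76e-04 by limma), set by the humeral level, since 5 of 8 femoral samples read under 4.5.

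ACTA2 is the actin of vascular smooth muscle, also made by pericytes and myofibroblasts. It read 7.13, 7.18, 8.71 and 8.96 in affected femur 1 to 4, and 5.85, 8.70, 9.71 and 8.65 in non-affected femur 1 and 2 averaged, 3, 4 and 5. The affected humerus ran from 10.02 to 12.50 with a median of 11.79, and the non-affected humerus from 8.16 to 12.16 with a median of 10.96. Non-affected humerus 5 and 1, at 8.16 and 8.32, again fell within the femoral range. The femur was lower by 7.25-fold (log2 difference -2.86, SE 0.58, adjusted p = 4.12e-04 by limma). Actins are near-identical, and how the ACTA2 probes read ACTG2, ACTA1 or ACTC1 was not tested. The ACTG2 probe sets, of the enteric smooth muscle actin, differed by -2.80 and -1.47 between femur and humerus.

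ESAM is an adhesion molecule of the immunoglobulin superfamily at endothelial tight junctions. Its first probe set read 7.35, 7.07, 7.18 and 7.29 in affected femur 1 to 4, and 7.03, 7.37, 7.42 and 7.45 in non-affected femur 1 and 2 averaged, 3, 4 and 5. The affected humerus ran from 6.49 to 7.23 with a median of 6.66, and the non-affected humerus from 6.64 to 7.01 with a median of 6.84. It was thus higher in the femur, by 0.48 (SE 0.09, adjusted p = 1.95e-04 by limma), with 8 of 8 femoral samples above the humeral mean.

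The second ESAM probe set read 5.81, 5.48, 5.91 and 6.78 in affected femur 1 to 4, and 5.63, 6.13, 7.22 and 6.65 in non-affected femur 1 and 2 averaged, 3, 4 and 5. It ran from 5.95 to 7.20 in the affected humerus and from 5.76 to 6.84 in the non-affected humerus. The joints overlapped over most of their range, and the difference of -0.34 was not called (adjusted p = 0.201 by limma, 95% interval -0.80 to 0.12). The third was not tested. It averaged 4.38 ± 0.38 in the femur (SD, n = 8) and 5.06 ± 0.42 in the humerus (SD, n = 13), and 6 of 8 femoral samples read under 4.5. For ESAM the probe sets of 1 gene therefore disagreed in sign. The second CDH5 probe set, not tested, ran the same way as the tested one, with 4.60 ± 0.40 in the femur and 5.20 ± 0.40 in the humerus (SD, n = 8 and 13).

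With status in the model, 7 of the 8 tested vessel probe sets were called between the joints, 6 lower and 1 higher in the femur. This stands against 51.8% of all tested probe sets called, 34.2% lower and 17.6% higher in the femur. Of the vessel genes called lower, CLDN5, GJA5 and CNN1 were tested only through their humeral level. The median difference was -2.72 over the 8 vessel probe sets and -0.12 over all tested ones. None of the 8 had every femoral sample below every humeral one, against 2.78% of all tested probe sets. Another scaling of the arrays moved the median of all probe sets by 0.15 (quantile normalisation) or 0.17 (median centring). The share of the called probe sets that were higher in the femur was 34% as deposited, 54.9% after quantile normalisation and 56.7% after median centring, whereas the called vessel probe sets kept their directions under both scalings.

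The joint could not be separated from how the arrays were handled. The spike-in control BioB read 9.54 to 9.84 on femoral arrays and 7.92 to 8.39 on humeral arrays, BioC 10.8 to 11.1 and 9.32 to 9.72, and BioDn 12.5 to 12.7 and 11.5 to 11.7. CreX read 13.7 to 13.9 on femoral and 13.3 to 13.5 on humeral arrays. The median of all probe sets of an array, in contrast, was lower on femoral arrays, at 6.05 to 6.17 against 6.18 to 6.33. Array handling and joint cannot be told apart in any femur against humerus value given here. The actin 3′ minus 5′ difference, a sign of RNA quality, was 2.43 to 3.07 on femoral and 2.63 to 3.55 on humeral arrays.

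In affected cartilage alone the gap between the joints was wide. The log2 difference, femur minus humerus, was -4.07 for CDH5 (SE 0.67, adjusted p = 1.84e-04 by limma), -3.83 for GJA5, -3.49 for ACTA2, -3.48 for CNN1 and -3.21 for CLDN5. TIE1 differed by -0.54 (adjusted p = 0.0182 by limma), and the first ESAM probe set was 0.48 higher (adjusted p = 0.00658). For CDH5, CLDN5, GJA5, CNN1 and ACTA2 every affected femoral sample lay below every affected humeral one, 5 of 8 tested probe sets against 12.9% of all. Of the 8, 7 were called, 6 lower and 1 higher, against 38.5% of all tested probe sets (24.6% lower and 13.9% higher in the femur). In both counts CLDN5, GJA5 and CNN1 had entered the test only through their humeral level. The TIE1 call was lost under quantile normalisation (difference -0.38, adjusted p = 0.114) and median centring (-0.38, adjusted p = 0.103), and without affected femur 2 (adjusted p = 0.0660) or 4 (adjusted p = 0.0513).

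In non-affected cartilage the same 5 genes had smaller differences, which were not tested against those in affected cartilage except as the interaction below. GJA5 differed by -2.55 (SE 0.60, adjusted p = 0.00319 by limma), CNN1 by -2.66 (adjusted p = 0.0165), ACTA2 by -2.19 (adjusted p = 0.0427) and CLDN5 by -1.91 (adjusted p = 0.0235). CDH5 differed by -1.69 and was not called (SE 0.69, adjusted p = 0.0597 by limma, 95% interval -3.13 to -0.26). TIE1 differed by -0.71 (adjusted p = 0.00496) and the first ESAM probe set by 0.49 (adjusted p = 0.00739). Of the 8, 6 were called, 5 lower and 1 higher, against 36.6% of all tested probe sets (25.0% lower and 11.6% higher in the femur). Here too CLDN5, GJA5 and CNN1 had entered the test only through their humeral level. Only GJA5 had every non-affected femoral sample below every non-affected humeral one, 1 of 8 against 13.6% of all tested probe sets.

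Single samples set some of these calls in non-affected cartilage. Without the averaged femoral 1 and 2, ACTA2 differed by -1.40 (adjusted p = 0.193 by limma), CLDN5 by -1.58 (adjusted p = 0.0811) and CDH5 by -0.96 (adjusted p = 0.274). CDH5 was called without non-affected humerus 1 (-2.0, adjusted p = 0.0288) or 5 (-2.02, adjusted p = 0.0252), the 2 humeral samples in which it was lowest. It was also called without non-affected femur 4 (-2.19, adjusted p = 0.0280) and without affected femur 4 (adjusted p = 0.0353), which enters only the estimate of the spread. The ACTA2 call was lost without any of non-affected femur 3 or 5 or non-affected humerus 2, 3, 4 or 6 (adjusted p up to 0.0912), and that of CLDN5 without non-affected femur 5 or humerus 4 (adjusted p up to 0.0593).

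**Figure D2:**
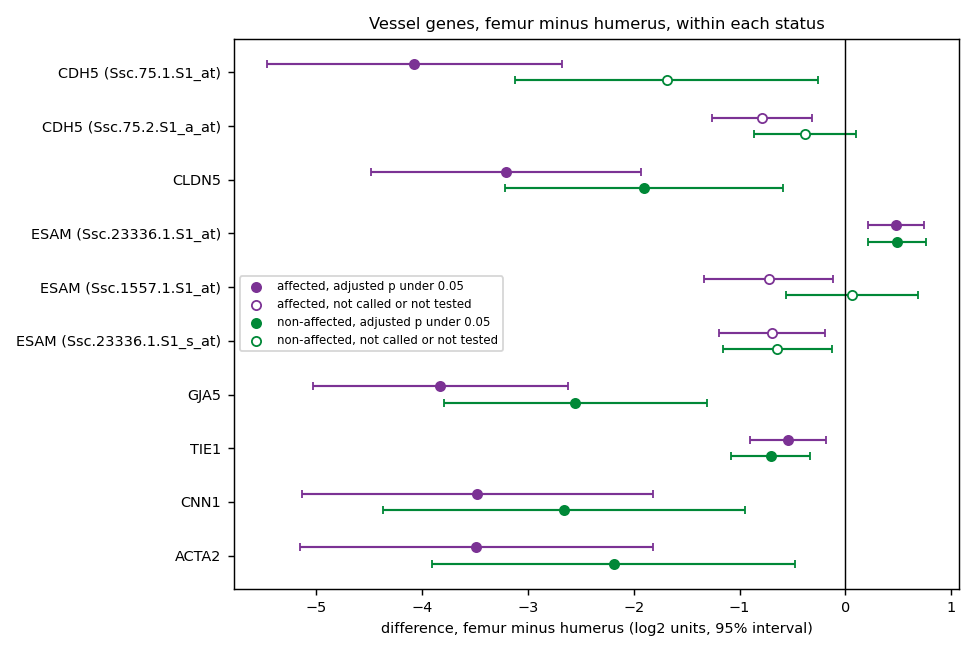
Femur minus humerus differences in log2 units (horizontal axis) for each vessel probe set in affected and in non-affected cartilage, with 95% intervals from the limma fit. Filled points had an adjusted p under 0.05. CDH5 stood at -4.07 in affected and -1.69 in non-affected cartilage, whereas the first ESAM probe set stood at 0.48 and 0.49.

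Between affected and non-affected cartilage no vessel probe set passed the test. Over both joints with the joint in the model, 0 of 8 were called against 0.00% of all tested probe sets, and 1223 of the 16799 had an unadjusted p under 0.05, none of them a vessel probe set. The differences ran from -0.09 for the first ESAM probe set to 0.69 for CNN1 (adjusted p = 0.788 by limma, 95% interval -0.45 to 1.83).

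In the humerus the affected group had the higher mean of 7 of the 8 tested probe sets. Over all tested probe sets 53.4% had the lower mean there. CDH5 averaged 9.08 ± 0.48 in the affected humerus (SD, n = 7) and 8.06 ± 1.27 in the non-affected humerus (SD, n = 6). The difference was 1.02, with a 95% interval from -0.22 to 2.26. The differences were 1.06 for ACTA2, 1.0 for CNN1, 0.89 for GJA5, 0.76 for CLDN5, 0.38 for the second ESAM probe set, 0.05 for TIE1 and -0.08 for the first ESAM probe set. None was called (adjusted p from 0.768 to 0.968 by limma), against 0.00% of all tested probe sets, of which 1100 had an unadjusted p under 0.05 with no vessel probe set among them. The intervals reached 2.48 for CNN1 and 2.54 for ACTA2, and each of these intervals also held 0. Non-affected humerus 5 read lowest in the humerus for CDH5, CLDN5, GJA5, CNN1 and ACTA2. Without it their differences fell to 0.69, 0.33, 0.47, 0.47 and 0.61 in the same order. Non-affected humerus 1 also read low, and a fit without both samples was not made. Over all humeral samples all 6 macrophage markers tested had the higher mean in the affected humerus (median difference 0.83). So did all 5 neutrophil (median 1.81), all 6 bone (0.67) and all 5 skeletal muscle markers (0.28). All 6 chondrocyte markers (median -0.17) and all 3 fibroblast and synovial markers (-0.07) had the lower mean there. Of the osteoclast, erythroid and adipocyte markers 1 of 5, 1 of 3 and 1 of 5 had the lower mean. None of these markers was called.

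In the femur the affected group had the lower mean of 6 of the 8 tested probe sets. CDH5 averaged 5.01 ± 1.43 in the affected femur and 6.37 ± 1.57 in the non-affected femur (SD, n = 4 each), a difference of -1.36 (adjusted p = 0.309 by limma, 95% interval -2.93 to 0.21). CLDN5 differed by -0.55, the second ESAM probe set by -0.41, GJA5 by -0.38, ACTA2 by -0.23 and the first ESAM probe set by -0.10. CNN1 stood at 0.19 and TIE1 at 0.22. All 6 macrophage markers tested had the lower mean in the affected femur too (median difference -2.01, none called), and their linear sum ran from 183 to 1094 in the affected femur and from 984 to 3991 in the non-affected femur. All 6 chondrocyte markers had the higher mean there (median 0.49, none called). The lower mean was found in 1 of 5 neutrophil, 3 of 6 bone and 3 of 5 osteoclast markers. It was also found in 3 of 5 skeletal muscle and 2 of 5 adipocyte markers. The erythroid and the fibroblast and synovial markers all had the higher mean, and none of these markers was called. The part of these cells in the status differences was not tested. None of the 8 vessel probe sets was called, against 1.14% of all tested probe sets, and 3422 probe sets but no vessel probe set had an unadjusted p under 0.05. The count over all probe sets moved with the processing, from 4 when the femoral arrays were fitted alone to 600 with no arrays averaged, and no vessel probe set was called in either.

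The status difference in the femur was also set against that in the humerus. CDH5 gave -2.38 (SE 0.96, unadjusted p = 0.0218, adjusted p = 0.204 by limma), with a 95% interval from -4.38 to -0.38. CLDN5 and ACTA2 gave -1.30, GJA5 -1.27, CNN1 -0.81, the second ESAM probe set -0.79, the first ESAM probe set -0.02 and TIE1 0.17. None of the 8 was called, against 0.268% of all tested probe sets. A different status effect in the joints was thus not shown for any vessel gene.

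**Figure D3:**
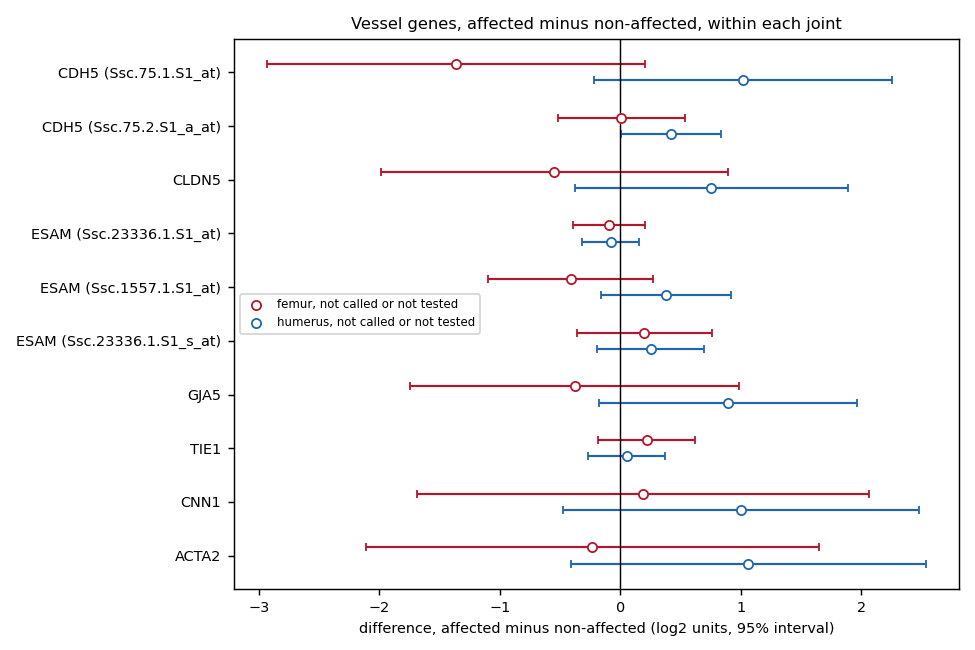
Affected minus non-affected differences in log2 units (horizontal axis) for each vessel probe set in the femur and in the humerus, with 95% intervals from the limma fit. All points are open because none was called. CDH5 stood at -1.36 in the femur and 1.02 in the humerus, and the intervals of both include 0.

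The order of the 4 group means was the same for CDH5, CLDN5, GJA5 and ACTA2: affected femur lowest, then non-affected femur, non-affected humerus and affected humerus. CNN1 and TIE1 had the same order except that the 2 femoral groups changed places. The first ESAM probe set ran from affected humerus through non-affected humerus and affected femur to non-affected femur. The second ESAM probe set ran from affected femur through non-affected humerus and non-affected femur to affected humerus. Neighbours in these orders overlapped in their sample ranges, except the non-affected femur and non-affected humerus for GJA5 and the non-affected humerus and affected femur for the first ESAM probe set. For CDH5, CLDN5, GJA5, CNN1 and ACTA2 the non-affected humeral mean was pulled down by its samples 5 and 1. Whether it stays below the affected humeral mean without both was not tested.

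Among samples of 1 joint, the 5 genes with the wide gap varied together. The mean of their log2 values was 4.79, 4.80, 5.37 and 6.52 in affected femur 1 to 4. It was 4.46 in the averaged non-affected femur 1 and 2, 6.16 in 3, 6.83 in 4 and 5.91 in 5. It ran from 7.83 to 9.67 in the affected humerus and from 5.88 to 9.71 in the non-affected humerus. Non-affected humerus 5 was the lowest of 13 humeral samples for each of the 5 genes. Non-affected humerus 1 was the next lowest for 4 of them, at a mean of 6.32. Affected humerus 7 and 8, at 7.83 and 7.87, were the lowest of the affected humerus. Non-affected humerus 5 also stood apart over all tested probe sets, on the femoral side of the first principal component (43.5% of the variance). Without it the femur minus humerus calls of the 8 vessel probe sets stayed at the same count or rose.

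Pearson's r between pairs of the 5 genes had a median of 0.76 over 8 femoral samples (10 pairs, 0.38 to 0.93; median Spearman rho 0.76). Over 13 humeral samples the median was 0.90 (0.84 to 0.99; median rho 0.83). Without the 2 samples farthest from the median of the 5-gene mean it was 0.72 over 6 femoral samples (0.25 to 0.99) and 0.72 over 11 humeral samples (0.51 to 0.96). These are descriptions, since the genes of 1 sample share its RNA and its array. TIE1 did not follow the others within a joint, with a median r with the 5 genes of 0.10 in the femur and 0.08 in the humerus. The second ESAM probe set did, at 0.80 in the femur and 0.75 in the humerus. The first ESAM probe set went with them in the femur, at 0.72, and against them in the humerus, at -0.51.

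Over the 21 samples the genes most like each vessel gene were found by Pearson's r, which here also carries the gap between the joints. CDH5 was most like S1PR1, the endothelial sphingosine phosphate receptor (r = 0.980), the junction protein PECAM1 (0.975) and TEK (0.975). Within the joints S1PR1 had r of 0.92 in the femur and 0.99 in the humerus, PECAM1 0.97 and 0.95, and TEK 0.98 and 0.97. CNN1 was most like ACTG2 (0.971), ACTA2 (0.959) and KCNJ8, a potassium channel of mural cells (0.957), and ACTA2 was most like the tropomyosin TPM2 (0.969), CNN1 and the mannosidase MAN1C1 (0.958). For CNN1 and ACTG2 the likeness was 0.34 in the femur, where both lay near the floor, and 0.98 in the humerus.

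CLDN5 was most like the sialic acid lyase NPL (0.961), the LIM protein FHL2 (0.957) and the chemokine CCL14 (0.957). GJA5 was most like the adaptor SKAP2 (0.966), the glycosyltransferase B3GNT3 (0.966) and the glutathione transferase MGST1 (0.954), with r of 0.53 to 0.66 in the femur and 0.90 to 0.96 in the humerus. TIE1 was most like the nuclear receptor PPARD (0.909), ACAN, the large proteoglycan of cartilage (0.887), and the lectin MLEC (0.872). Its r with ACAN was 0.76 in the femur and 0.84 in the humerus. The first ESAM probe set was most like NUCB1, a calcium-binding protein of the Golgi (0.901), SFRP1, a secreted Wnt antagonist (0.890), and C3H7orf26 (0.881). No endothelial gene of the lists used here was among the 3 genes most like CLDN5, GJA5, TIE1 or this ESAM probe set.

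Other genes of endothelium were described from a list of 44, of which 28 were on the array and 23 were tested, each by its brightest probe set. Between the joints 14 of 23 were lower in the femur and 0 higher, against 34.2% lower and 17.6% higher over all tested probe sets. Their median difference was -0.83 against -0.12 for all tested probe sets. S1PR1 averaged 5.63 ± 1.27 in the femur and 8.77 ± 1.05 in the humerus (difference -3.12, adjusted p = 2.78e-05 by limma). The surface protein ECSCR differed by -3.02 and the transcription factor LMO2 by -2.25. PECAM1 differed by -2.40, TEK by -2.20, the clotting protein VWF by -2.18 and the nitric oxide synthase NOS3 by -1.36. The dimmer TEK probe sets, not tested, showed no such gap. They averaged 4.93 and 4.47 in the femur and 4.85 and 4.35 in the humerus. Of the 14, LMO2, VWF and NOS3 had femoral means under 5.30 and were tested only through their humeral level. The other 9, among them the progenitor antigen CD34 at 0.03, the transforming growth factor co-receptor ENG at -0.14 and the transcription factor ERG at -0.24, were not called. The list thus held genes with gaps as wide as those of the chosen genes beside genes with no detectable one. In affected cartilage 14 of 23 were called lower in the femur, against 24.6% of all tested probe sets. In non-affected cartilage 6 of 23 were, near the 25.0% over all tested probe sets.

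None of the 23 was called between affected and non-affected cartilage in either joint. In the humerus 5 of 23 were lower in affected cartilage (median 0.37) and in the femur 18 of 23 (median -0.36), counted by sign alone. Over all tested probe sets 53.4% were lower in affected humeral and 48.9% in affected femoral cartilage. The 3 smallest p-values in the femur were those of ERG (0.70, adjusted p = 0.238 by limma), the receptor NOTCH4 (-0.50, adjusted p = 0.301) and the adhesion molecule ICAM2 (-1.01, adjusted p = 0.331).

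**Figure D4:**
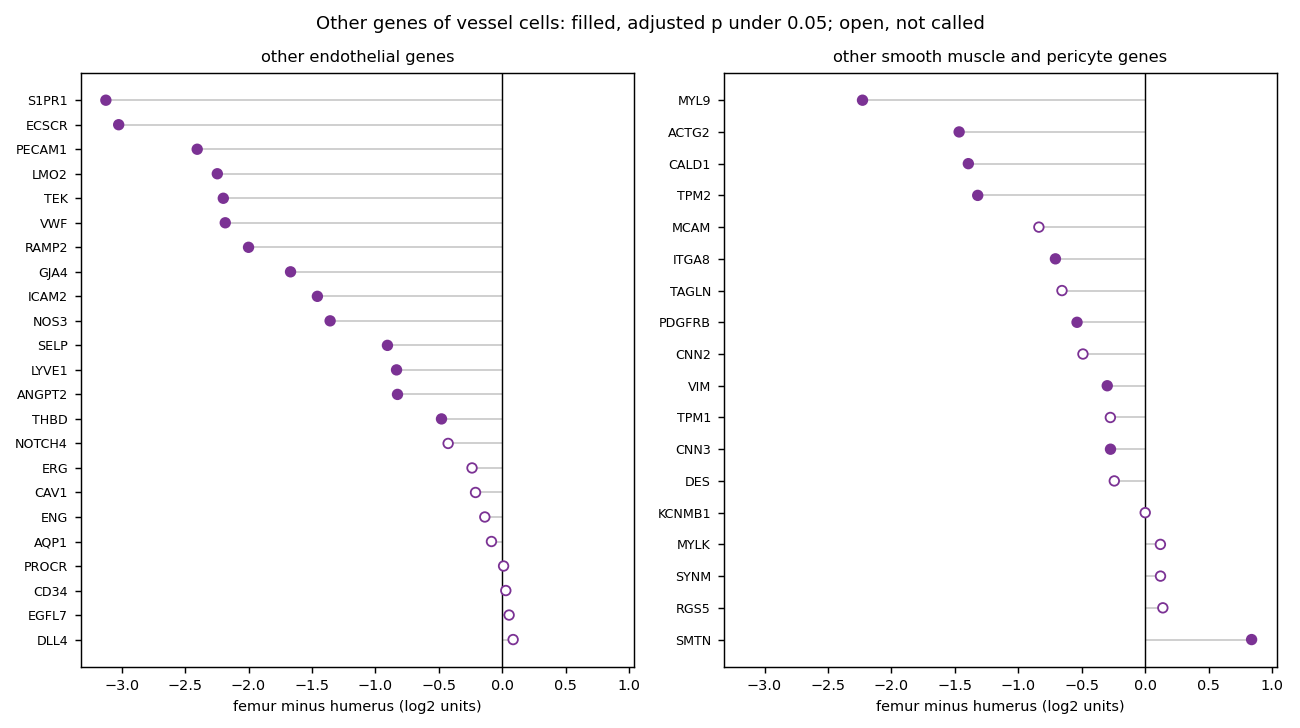
Femur minus humerus differences in log2 units (horizontal axis), with status in the model, of 23 other endothelial genes and 18 other smooth muscle and pericyte genes. Filled points had an adjusted p under 0.05 by limma. The endothelial genes ran from S1PR1 at -3.12 to DLL4 at 0.09, and the wall genes from MYL9 at -2.23 to SMTN at 0.84.

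Of 26 other smooth muscle and pericyte genes 20 were on the array and 18 were tested. Of these, 8 were lower and 1 higher in the femur, against 34.2% and 17.6% of all tested probe sets. Their median difference was -0.39, against -0.12 over all. The myosin light chain MYL9 differed by -2.23, the brighter ACTG2 probe set by -1.47 (adjusted p = 5.23e-06 by limma), the actin-binding CALD1 by -1.39 and TPM2 by -1.32. The pericyte receptor PDGFRB differed by -0.54 and the integrin ITGA8 by -0.71. MYL9 and ITGA8 had femoral means under 5.30, so that their humeral level alone brought them into the test. The gene that was higher was the cytoskeletal SMTN, at 0.84 (adjusted p = 0.00410 by limma). TAGLN at -0.66, the pericyte gene RGS5 at 0.14 and the intermediate filament gene DES at -0.24 were not called. In affected cartilage 7 of the 18 were called lower and 1 higher in the femur, against 24.6% and 13.9% of all tested probe sets. In non-affected cartilage 3 of the 18 were lower and 0 higher, under the 25.0% and 11.6% over all tested probe sets. Between affected and non-affected femur the 3 smallest p-values were those of CALD1 (1.17, adjusted p = 0.142), the myosin kinase MYLK (-0.37, adjusted p = 0.296) and the potassium channel subunit KCNMB1 (0.28, adjusted p = 0.410), and none was called.

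Factors that promote vessel growth, most of them secreted, numbered 22 in the list, 11 on the array and 9 tested. Of the 9, 3 were lower and 1 higher in the femur, near or under the 34.2% and 17.6% of all tested probe sets, so the counts show nothing about these factors as a group. The chemokine CXCL12 averaged 5.22 ± 1.08 in the femur and 8.38 ± 1.47 in the humerus (difference -3.14, adjusted p = 1.29e-04 by limma). FGF2 was lower by 0.68 and the matrix protease MMP9 by 0.87. All 3 had femoral means under 5.30 and entered the test through the humerus. VEGFB was higher by 0.54 (adjusted p = 9.47e-05). VEGFA, the main endothelial growth factor, stood at 0.92 and was not called (adjusted p = 0.117 by limma). Between affected and non-affected femur the matrix protease MMP14 (0.37), the hypoxia factor EPAS1 (-0.22) and VEGFA (0.90) had the smallest p-values, and none was called (adjusted p = 0.491 to 0.506).

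The calls in the last lists were likewise near the shares over all tested probe sets. Of 6 inhibitors of vessel growth, SERPINF1 and TIMP3 were lower in the femur, by 0.70 and 0.71, and TNNI2 was higher by 0.92, a gene better known as a troponin of skeletal muscle. In the affected femur SERPINF1 (-0.62), THBS2 (0.70) and THBS1 (0.27) were not called (adjusted p = 0.236 to 0.367 by limma). Of 5 genes of the vessel basement membrane, the laminin chain LAMB1 was lower in the femur by 2.01 and LAMB2 was higher by 0.44. LAMC1, at -0.35, was not called (adjusted p = 0.0578). In the affected femur NID2 (0.47), COL4A2 (-0.24) and LAMB1 (-0.16) were not called (adjusted p = 0.340 to 0.888).

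**Figure D5:**
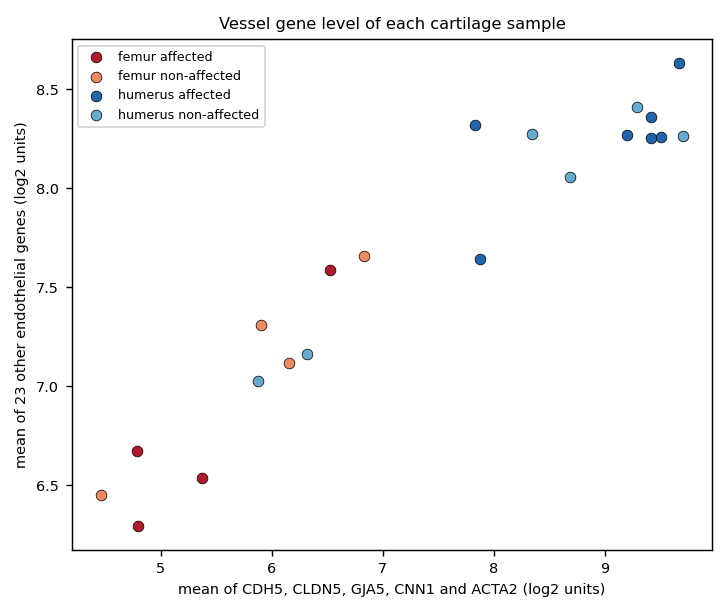
Each sample's mean log2 value of CDH5, CLDN5, GJA5, CNN1 and ACTA2 (horizontal axis) against its mean over the 23 other endothelial genes (vertical axis). Points are the 21 samples, coloured by group. Non-affected humerus 5 and 1, at 5.88 and 6.32 on the horizontal axis, lay among the femoral samples, and r within the joints was 0.94 in the femur (n = 8) and 0.91 in the humerus (n = 13).

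Markers of several other cell types also differed between the joints with status in the model, where 34.2% of all tested probe sets were called lower and 17.6% higher in the femur. Summed on the linear scale, the 6 macrophage markers on the array ran from 183 to 3991 in the femur and from 443 to 10609 in the humerus, and 5 of the 6 tested were called lower in the femur. The 7 bone markers ran from 2535 to 6503 in the femur and from 4265 to 36490 in the humerus, with 4 of 6 tested called lower and 1 higher. The 5 osteoclast markers ran from 2225 to 5840 in the femur and from 3090 to 28953 in the humerus, with 4 lower and 1 higher. Of the 4 lower, 2 (ATP6V0D2 and MMP9) had femoral means under 5.30. The 5 neutrophil markers ran from 82.1 to 706 in the femur and from 142 to 29595 in the humerus, and all 5 were lower, 4 of them with femoral means under 5.30. In non-affected cartilage 25.0% of all tested probe sets were called lower in the femur. Of the markers, 0 of 6 macrophage (median -0.32), 0 of 5 neutrophil (median -1.53) and 2 of 6 bone markers were called lower. For osteoclast, adipocyte and erythroid markers the counts were 1 of 5, 1 of 5 and 1 of 3. For fibroblast and synovial and for chondrocyte markers they were 2 of 3 and 3 of 6. Of the 8 vessel probe sets 5 were called lower there. Among these, CLDN5, GJA5 and CNN1 were tested only through their humeral level. Of the 23 other endothelial genes 6 were called lower there, near the 25.0%. Of 8 endothelial markers tested, CLDN5 and GJA5 among them, 3 were lower and 1 higher. In affected cartilage 24.6% of all tested probe sets were called lower. The counts there were 6 of 6 macrophage, 4 of 5 neutrophil, 4 of 6 bone and 4 of 5 osteoclast markers, and 6 of 8 vessel probe sets. They were 2 of 5 for adipocyte, and 0 for chondrocyte, erythroid and fibroblast and synovial markers. With status in the model skeletal muscle went the other way, with 5 of 5 tested markers higher in the femur. Its markers ran from 244 to 3653 in the femur and from 208 to 3235 in the humerus.

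The 5 adipocyte markers ran from 474 to 687 in the femur and from 436 to 4614 in the humerus, with 3 lower and 2 higher. Erythroid markers ran from 130 to 481 in the femur and from 210 to 910 in the humerus, with 1 of 3 lower, as over all probe sets, and fibroblast and synovial markers from 17716 to 28292 and from 22850 to 30654, with 2 of 3 lower. No marker on the array read under 4.5 in every femoral or every humeral sample. In the non-affected femur alone 2 neutrophil markers, S100A12 and LTF, read under 4.5 in every sample. Within the humerus the 5-gene mean of a sample had r of 0.94 with its mean of macrophage markers, 0.93 with adipocyte, 0.71 with bone and 0.70 with osteoclast markers, but -0.49 with chondrocyte markers (n = 13). Within the femur the values were 0.65, 0.84, 0.01, 0.71 and -0.38 (n = 8). The part of other tissue in the samples in the gap between the joints was not tested.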

How the data were processed

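Total RNA of 23 cartilage samples was hybridised to Affymetrix Porcine Genome Arrays. The deposited table holds log2 values with a floor at 4, and GCOS 1.1.1 is named per the submitters' processing notes. How the arrays were normalised is not given in the labels or the notes. Values were used as deposited. Gene symbols came from the platform annotation (10099 probe sets with 1 symbol, 198 with several, 13826 unlisted), and all 10 vessel probe sets have the same symbol in RefSeq.

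Pairs of arrays of a group whose difference had an SD under 0.25 were averaged (2 pairs of 59). After leaving out 124 control probe sets and 7200 with a mean under the 30th percentile (5.30), 16799 probe sets were fitted with limma 3.58.1 in R 4.3.3 (lmFit, eBayes, Benjamini-Hochberg, threshold 0.05), on 4 group means or on joint and status together. The fit was tested on simulated data. Other steps used Python 3.11.15, pandas 2.3.3 and matplotlib 3.10.9. Replicate numbers follow the order of the samples and pair nothing.

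The vessel genes and gene lists were chosen with earlier results of these data known. Named beside them were the 3 genes most like each by r, and of each list the 3 genes with the smallest p between the joints and the 3 between affected and non-affected femur. Further genes of the lists were named after their values were seen. Tried alternatives were the filter, scaling, averaging, variance model, array weights, floor, leaving out each sample, each joint fitted alone and equal weight of the joints. The planned comparison of protein and promoter sequences was not made. Precision is limited by the number of arrays.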

Additional observations from a re-analysis of the deposited data

Results flagged for a closer look

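Dixon's test of the highest or lowest sample of a group was run on 40 groups of the 10 vessel probe sets, and 3 passed it. Chance passes about 1 group in 20. Affected femur 4 read 7.14 for CDH5, where the next of the 4 affected femoral samples read 4.49. The same sample read 5.37 for GJA5, where the next read 4.36. Non-affected femur 4 read 5.65 for CNN1, where the next of the 4 non-affected femoral samples read 4.24. Each of these 3 was the highest of its group and stood over others that lay near the floor.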

How the results depend on the processing

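The number of vessel probe sets called between the joints was 7 with status in the model (7 to 9 over 29 alternatives), 7 in affected cartilage (6 to 9) and 6 in non-affected cartilage (4 to 7). Over all probe sets the called numbers were 8707 (6153 to 10299), 6466 (4741 to 7216) and 6149 (4326 to 6968) in the same order. The main vessel counts are of 8 tested probe sets, whereas without the filter all 10 were tested. The number of all probe sets tested also changed with the filter. In the 4 comparisons of status it was 0 under every alternative run. Of the values of single vessel probe sets under alternatives, 16 lost a call, 13 gained one and 29 changed sign, none of the last in a called value. The other 1604 were counted as the same. Among these were the values of the second CDH5 and the third ESAM probe set without the filter, which had no main test to keep to. Without the filter both dim probe sets were called between the joints, the second CDH5 probe set at -0.59 (adjusted p = 0.00629 by limma) and the third ESAM probe set at -0.67 (adjusted p = 0.00304). ACTA2 in non-affected cartilage lost its call under quantile normalisation (-2.06, adjusted p = 0.0541) and median centring (-2.01, adjusted p = 0.0577). CDH5 there gained one with no arrays averaged (-2.13, adjusted p = 0.0144) and with array weights (-1.93, adjusted p = 0.0188). The second ESAM probe set in affected cartilage (-0.73, adjusted p = 0.0544) gained one under 6 alternatives. These were no arrays averaged (-0.74, adjusted p = 0.0449) and leaving out affected femur 4 (-0.99, adjusted p = 0.0162), affected humerus 8 (-0.85, adjusted p = 0.0243), the averaged non-affected femur 1 and 2, non-affected femur 4 or non-affected humerus 5 (adjusted p up to 0.0492). It also gained one with status in the model without non-affected femur 4 (-0.50, adjusted p = 0.0473).

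Uncalled values that changed sign were, with no arrays averaged, the second ESAM probe set between the joints in non-affected cartilage (-0.092), ACTA2 by status in the femur (0.24) and the first ESAM probe set for the status effects of the joints against each other (0.037). The same second ESAM probe set value was -0.015 with array weights. CNN1 by status in the femur was -0.027 with values under 5 raised to 5. By status with equal weight of the joints CDH5 was -0.17 and the second ESAM probe set -0.019. Leaving out 1 sample at a time gave -0.21 to 0.32 for the second ESAM probe set between the joints in non-affected cartilage and -0.11 to 0.065 for the first ESAM probe set between the status effects. By status over both joints it gave -0.14 to 0.37 for CDH5, -0.029 to 0.42 for CLDN5 and -0.015 to 0.20 for the second ESAM probe set. By status it gave -0.036 to 0.14 for TIE1 in the humerus, -1.02 to 0.26 for ACTA2 in the femur and -0.063 to 0.56 for CNN1 in the femur.

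Over all probe sets, the 192 called by status in the femur became 600 with no arrays averaged, 59 with array weights and 4 with the femoral arrays alone, and 53 (without non-affected femur 3) to 450 (without affected femur 1) with 1 sample left out. The 45 called between the status effects became 220, 21 and 15 to 98 under the first 2 and the last of these, with the same samples at the ends. The 0 called by status over both joints became 22 with equal weight of the joints. The cause of these shifts was not tested. No paired analysis was possible because the labels give no number or sib that joins samples of different groups.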
